A study of Mus musculus with 9 samples.

Results

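Glutamate and GABA are the main excitatory and inhibitory transmitters of the nervous system, and 7 genes that make them or load them into vesicles were followed in Merkel cells and basal keratinocytes of newborn mouse epidermis: Slc17a6, Slc17a7, Slc17a8, Gls2, Gad1, Gad2 and Slc32a1. They were chosen by symbol, and all 7 were found among the 49672 rows of the gene table. Merkel cells, which sense touch, were sorted as GFP-positive cells from Sox2-GFP reporter mice at postnatal day 0 (3 libraries). The control was GFP-negative basal keratinocytes from the same reporter strain and age, positive for SCA1 and CD49F (6 libraries). For each sample number, 1 to 3, there is a Merkel library and a pair of basal libraries, a first and a second. The labels do not say how first and second differ, or whether a number stands for an animal, a pool or a litter, so p-values measure only the spread between these samples, which may be technical. All libraries carry the reporter, and the GFP gate follows Sox2, a gene that cells other than Merkel cells also use.

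Glutamate is made from glutamine by glutaminases, among them the product of Gls2, and GABA is made from glutamate by the glutamate decarboxylases (Gad1 and Gad2). Vesicular glutamate transporters, encoded by Slc17a7 (VGLUT1), Slc17a6 (VGLUT2) and Slc17a8 (VGLUT3), then fill synaptic vesicles with glutamate. The vesicular inhibitory amino acid transporter, encoded by Slc32a1, does so with GABA and glycine. Both kinds of transporter use the proton gradient of the V-ATPase. Merkel cells pass touch signals on to sensory nerve endings, and glutamate has been among the transmitters considered for that contact.

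Values are TPM, which measure transcript abundance per length and have an equal sum in all libraries, so levels of different genes can be compared within a library. Read depth is unknown from TPM. Between 13012 and 13575 genes reached 1 TPM in Merkel libraries, and between 13043 and 13649 in basal libraries. The Merkel label held against its markers: all 9 listed markers were called higher, the most abundant being the keratin Krt8, and their summed level was 1004 to 1333 TPM in Merkel and 2.64 to 5.90 TPM in basal libraries. Basal markers were led by Krt14 and summed to 5978 to 6896 TPM in Merkel and 14778 to 19589 TPM in basal libraries, so they stayed abundant in the sorted Merkel fraction. In such bulk samples, fewer cells of a type and less RNA per cell cannot be told apart.

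Of the 7 genes, Slc17a6 and Slc17a8, both transporters of glutamate, were called higher in Merkel cells, and the genes of GABA synthesis and loading were too low to be tested. Slc17a6 was the most abundant, at 4.79 ± 0.844 TPM in Merkel cells and at 0.0033 ± 0.0029 TPM in basal keratinocytes (SD, n = 3). Slc17a8 followed at 1.35 ± 0.0737 against 0.0383 ± 0.0225 TPM. The glutaminase Gls2 was low, at 0.470 ± 0.195 against 1.08 ± 0.398 TPM. Slc17a7, Gad1 and Gad2 stayed under 0.5 TPM in every library, and Slc32a1 was listed at 0 in all 9.

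The transporter genes of glutamate lie on chromosomes 7 and 10 (mm10, GENCODE M21). Slc17a6 (ENSMUSG00000030500.6) spans chr7:51622006-51671119 on the plus strand, Slc17a7 (ENSMUSG00000070570.5) chr7:45163949-45176142 on the plus strand, and Slc17a8 (ENSMUSG00000019935.16) chr10:89574020-89621253 on the minus strand. The 250 bases before the RefSeq start nearest the GENCODE start are printed here for these 3, because they are a family of like function of which 2 differed between the cell types. Sequences are from RefSeq (GRCm38.p6), 5′ to 3′ on the gene's strand, and capitals mark matches to CANNTG, the E-box bound by basic helix-loop-helix factors such as the Merkel cell regulator Atoh1. The windows lie at chr7:51621580-51621829 for Slc17a6, chr10:89621250-89621499 for Slc17a8 and chr7:45163671-45163920 for Slc17a7.
Slc17a6: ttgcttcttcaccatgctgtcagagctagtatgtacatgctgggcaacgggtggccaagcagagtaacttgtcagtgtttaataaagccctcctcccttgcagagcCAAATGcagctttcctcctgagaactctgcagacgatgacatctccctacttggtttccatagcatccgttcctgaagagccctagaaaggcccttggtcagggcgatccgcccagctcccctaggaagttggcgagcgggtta
Slc17a8: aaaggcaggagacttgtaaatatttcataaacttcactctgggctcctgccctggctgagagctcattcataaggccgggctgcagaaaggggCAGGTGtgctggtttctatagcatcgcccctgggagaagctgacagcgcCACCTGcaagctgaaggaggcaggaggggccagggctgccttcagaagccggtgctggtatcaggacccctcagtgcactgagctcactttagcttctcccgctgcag
Slc17a7: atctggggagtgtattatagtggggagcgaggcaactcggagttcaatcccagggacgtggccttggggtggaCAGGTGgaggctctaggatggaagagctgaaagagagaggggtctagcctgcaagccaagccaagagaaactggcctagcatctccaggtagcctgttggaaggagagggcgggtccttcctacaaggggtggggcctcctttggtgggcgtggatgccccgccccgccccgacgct

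Searched on both strands, CANNTG occurred 1 time in the Slc17a6 window, 2 times in that of Slc17a8 and 1 time in that of Slc17a7. It was present in 66.2% of the 32851 promoter windows of this length in the RefSeq table, so its presence does not set these genes apart. The narrower forms CAGCTG (13.0% of windows) and CAGATG (14.4%), which overlap CANNTG, the homeodomain core TAATTA (4.8%) and the TATA motif TATAAA (12.4%) occurred 0 times in the 3 windows. The GC box GGGCGG (32.7%) occurred 1 time in the Slc17a6 window, 3 times in that of Slc17a7 and 0 times in that of Slc17a8. The G and C content was 53.2% for Slc17a6, 57.2% for Slc17a8 and 61.2% for Slc17a7, against a median of 52.4% over all windows. RefSeq lists 2 starts each for Slc17a6 and Slc17a8. The expression values are per gene and do not tell starts apart.

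Slc17a6 was at 4.35, 4.25 and 5.76 TPM in Merkel libraries 1, 2 and 3. In first basal libraries it was at 0.01, 0 and 0.01 TPM, and in second basal libraries it was listed at 0 in all 3. Every Merkel library lay far above every basal library, and Merkel library 3 was the highest. The log2 fold change, on the scale of log2(TPM + 1), was 2.52 ± 0.14 (SE, n = 3 against 3; limma adjusted p = 2.57e-06). Of the 16492 to 16701 protein-coding genes above 0 in a Merkel library, 8876 to 9486 had a higher level than Slc17a6.

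Slc17a8 was at 1.41, 1.27 and 1.38 TPM in Merkel libraries 1 to 3. It was at 0.04, 0.03 and 0.06 TPM in first basal libraries and at 0.08, 0 and 0.02 TPM in second. The groups did not overlap, and the Merkel libraries lay closer together than for Slc17a6. The log2 fold change was 1.18 ± 0.12 (SE; limma adjusted p = 8.34e-05), and 11720 to 11986 protein-coding genes had a higher level in the same library. Against the first basal libraries alone it was 1.17 and against the second alone 1.19, and the corresponding values for Slc17a6 were 2.51 and 2.52.

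A gene was called where limma's adjusted p was under 0.05 and the 2 cell types differed by 1 or more on the log2 scale. By that rule 12.1% of the 13883 tested genes were called, 6.76% as higher in Merkel cells and 5.29% as lower, and in 11.7% every Merkel library lay above every basal library. Only 2 of the 7 genes passed the filter on low values (3 or more of the 3 Merkel and 3 basal values at 1 TPM or above), and both were called higher. With basal levels near 0 they passed through the Merkel libraries alone, so their calls are largely set by the filter and their count is no support in itself. Adding 1 TPM before the log compresses low values. With a pseudocount of 0.1 the log2 fold change of Slc17a8 was 3.42 and that of Slc17a6 was 5.55. With mitochondrial and small RNA genes removed before rescaling they were 1.75 and 3.32.

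Slc17a7, which encodes the transporter of many cortical excitatory neurons, was at 0.04, 0.12 and 0.15 TPM in Merkel libraries. Basal libraries ranged from 0 to 0.18 TPM with a median of 0.035, and the groups overlapped. Within the Merkel libraries, Slc17a6 thus made up 75.0%, 75.4% and 79.0% of the summed TPM of the 3 glutamate transporters (76.5% ± 2.22, SD, n = 3). Slc17a8 held 24.3%, 22.5% and 18.9%, and Slc17a7 0.69%, 2.13% and 2.06%. The level of Slc17a6 was 3.09, 3.35 and 4.17 times that of Slc17a8. The summed level of the 3 was 5.64 to 7.29 TPM in Merkel and 0.04 to 0.21 TPM in basal libraries.

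Reads of family members could be exchanged where their transcripts are alike. The longest identical run between annotated coding transcripts was 25 bases for Slc17a6 and Slc17a8, 21 for Slc17a6 and Slc17a7 and 17 for Slc17a7 and Slc17a8, and reads were 125 bases long. For Gad1 and Gad2 it was 17 bases. Only exact runs were measured, and exchange of reads over nearly identical stretches was not tested. The predicted gene Gm45072 lies within Slc17a6 on the same strand and was at 0.06 TPM or less in every library.

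**Figure D1:**
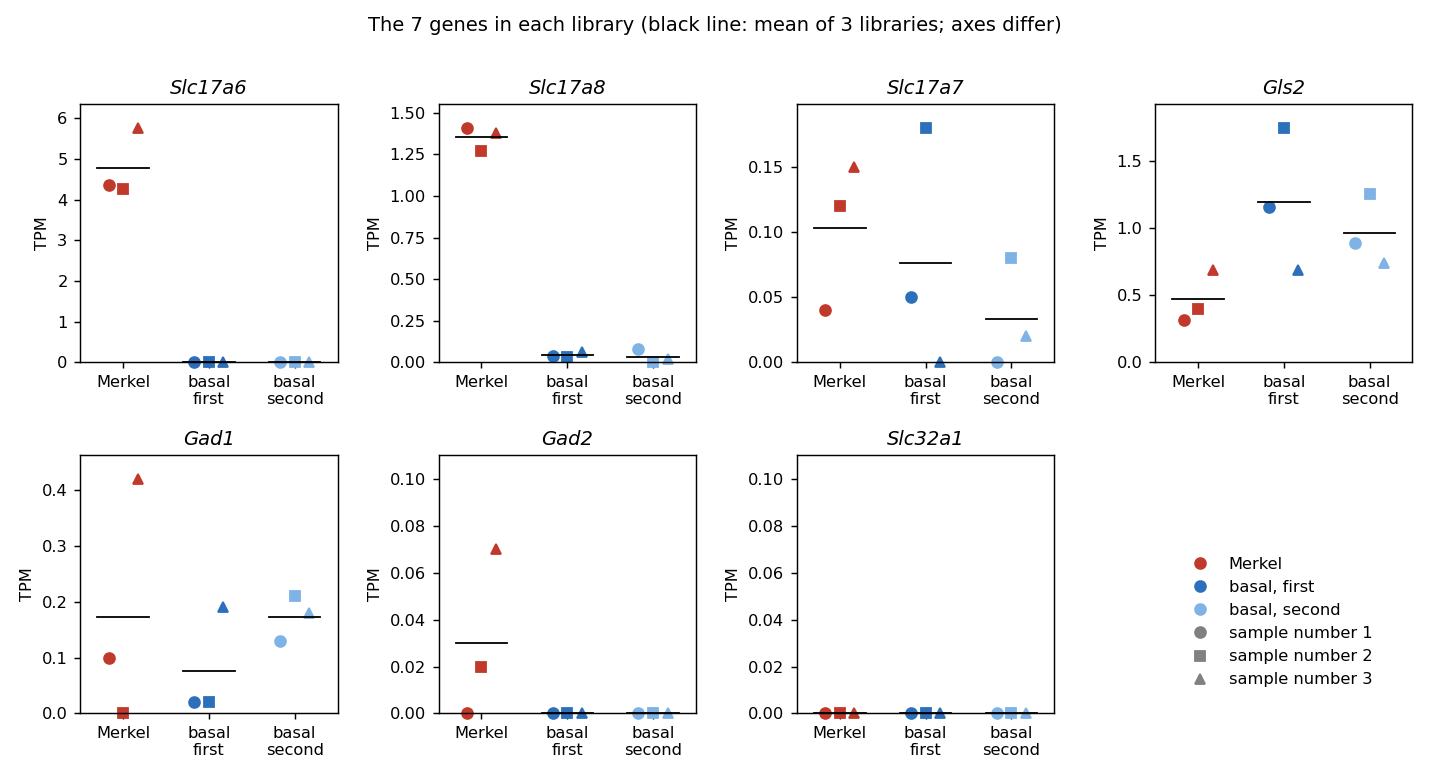
TPM (y axis, scale differs by panel) of the 7 genes in each library of Merkel cells and of first and second basal keratinocyte libraries (x axis); symbols give the sample number and black lines the mean of 3 libraries. Slc17a6 (4.25 to 5.76 TPM) and Slc17a8 (1.27 to 1.41 TPM) are separated from all basal libraries, Gls2 lies mostly lower in Merkel libraries, and the panels of Slc17a7, Gad1, Gad2 and Slc32a1 stay under 0.5 TPM.

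Gls2, the glutaminase first known from liver, lies on chr10:128194457-128210004. It was at 0.32, 0.40 and 0.69 TPM in Merkel libraries. First basal libraries gave 1.16, 1.75 and 0.69 TPM and second basal libraries 0.89, 1.26 and 0.74. The highest Merkel library equalled the lowest basal library, and sample number 2 was the highest in both basal sets. Averaged by sample number, the 3 basal values lay above the 3 Merkel values, a difference of -0.612 TPM (exact permutation test, two-sided, p = 0.10, the smallest that 3 against 3 can give). Gls2 missed the filter on low values. With no filter, limma gave it a log2 fold change of -0.49 and an adjusted p of 0.0835. On the opposite strand Gls2 overlaps Spryd4, which was at 9.54 to 9.59 TPM in Merkel and 9.89 to 11.95 TPM in basal libraries. The strand setting of the quantification is not given in the sources used here, so Gls2 levels are uncertain to the extent that reads of the pair were divided.

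The genes of GABA synthesis and loading were low in both cell types. Gad1, on chr2:70553072-70602014, was at 0.10, 0 and 0.42 TPM in Merkel libraries. In basal libraries it ranged from 0.02 to 0.21 TPM, and the groups overlapped. Its antisense neighbour Gad1os was listed at 0 in 8 libraries and at 0.38 TPM in second basal library 1. Gad2, on chr2:22622205-22693874, was at 0, 0.02 and 0.07 TPM in Merkel libraries and listed at 0 in all 6 basal libraries. Slc32a1, on chr2:158610767-158615748, was listed at 0 in every library. Gad1 and Gad2 together reached 0.1, 0.02 and 0.49 TPM in the Merkel libraries, where the glutamate transporters summed to 5.8, 5.64 and 7.29 TPM. Merkel library 3 was the highest for Gad1, Gad2, Slc17a6, Slc17a7 and Gls2 alike. With no filter, limma gave Gad1 a log2 fold change of 0.05 (adjusted p = 0.816), Gad2 0.04 (adjusted p = 0.351) and Slc17a7 0.07 (adjusted p = 0.462). Depth is unknown, so these levels do not show that the transcripts are absent.

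Among transporters that load vesicles, Slc17a6 had the highest level in Merkel cells. Slc17a5, a lysosomal sialic acid exporter of the same family, was above it at 8.11 ± 1.65 TPM against 5.66 ± 0.778 in basal keratinocytes, and was not called. The polyamine transporter Slc18b1 came next at 2.32 ± 0.895 TPM, followed by Slc17a8. The monoamine transporters Slc18a2 (0.807 ± 0.0404 TPM) and Slc18a1 (0.607 ± 0.150 TPM) were below Slc17a8. Each of these 6 genes had a range over the 3 Merkel libraries that did not overlap that of its neighbour in the order. Slc18b1 and Slc17a8 were apart only by 1.49 against 1.41 TPM, and Slc18a2 and Slc18a1 by 0.77 against 0.75. On the opposite strand Slc18a1 overlaps Atp6v1b2, which was at 37.8 to 42.2 TPM in Merkel libraries, and Slc18a2 overlaps Gm29261. Reads of these pairs may have been split, so the places of both monoamine transporters are uncertain. The zinc transporter Slc30a3, the nucleotide transporter Slc17a9, Slc17a7 and the acetylcholine transporter Slc18a3 followed at means of 0.170 TPM or less, with overlapping ranges. Of the 11 genes in this order 4 were tested, and Slc17a5 and Slc18b1 were not called. Of the 6 genes on the list of other vesicle transporters Slc18b1 alone was tested, at 2.32 against 3.90 TPM (log2 fold change -0.58).

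**Figure D2:**
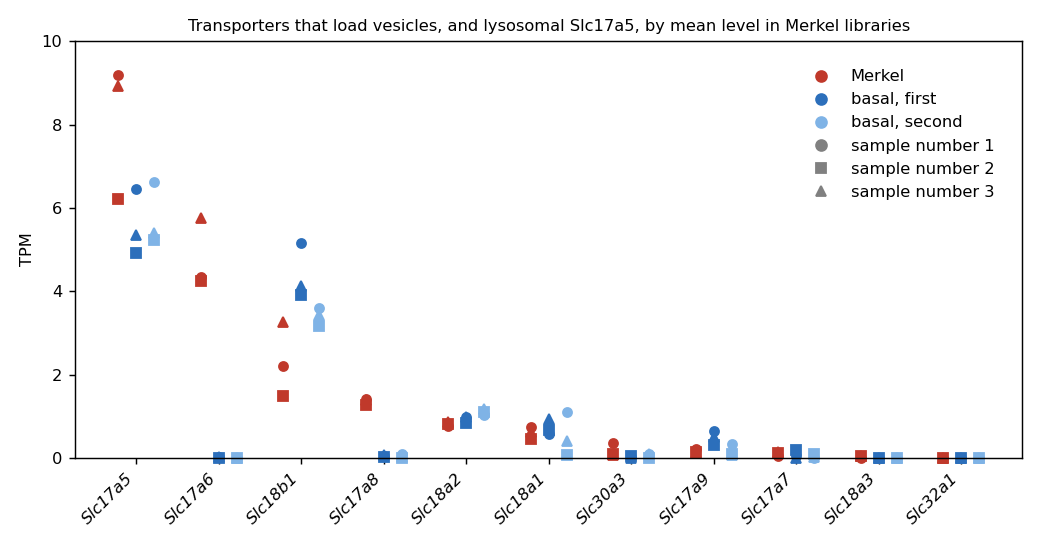
TPM (y axis) of transporters that load vesicles, and of lysosomal Slc17a5, ordered by mean level in Merkel libraries (x axis); each point is 1 library, coloured by group with the sample number as symbol. Slc17a6 and Slc17a8 are near 0 in all basal libraries, while Slc17a5, Slc18b1, Slc18a2 and Slc18a1 are present in both cell types.

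The rest of glutamate and GABA handling was read from lists holding 114 genes, of which 50 were tested, 10 were called higher and 1 lower. Of all 13883 tested genes, 6.76% were called higher and 5.29% lower. The median log2 fold change of the 50 was 0.35, and that of all tested genes was -0.15. With median-ratio scaling of the libraries, the median of all genes moved to 0.02, and the share called higher among called genes from 56.1% to 70.5%. Genes with fewer than 3 of the 6 values at 1 TPM or above went untested, so these counts are not shares of whole lists.

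Of 11 enzymes, all tested, 1 was called higher, beside 6.76% of all tested genes (median log2 fold change of the enzymes 0.04). The 1 was Glul, glutamine synthetase, which turns glutamate and ammonia into glutamine. It was at 121, 90.9 and 122 TPM in Merkel libraries. Basal libraries ranged from 19.8 to 62.2 TPM, the highest being the first library of number 1, and the groups did not overlap. The log2 fold change was 1.75 ± 0.24 (SE; limma adjusted p = 0.000513). Abat, the GABA transaminase that breaks GABA down, was at 1.97 ± 0.274 TPM in Merkel cells, with 0.52 to 0.69 in first and 1.32 to 1.69 in second basal libraries. Its log2 fold change of 0.57 ± 0.13 was short of the fold limit. It moved to 0.89 against the first and 0.26 against the second basal libraries.

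Carriers of glutamine and glutamate at the plasma membrane went both ways. Slc38a1, a glutamine carrier also used by neurons, was at 7.76, 4.83 and 7.08 TPM in Merkel and at 1.08 to 3.12 TPM in basal libraries (log2 fold change 1.42 ± 0.18, SE; limma adjusted p = 0.000363). It was the 1 called of 5 tested glutamine carriers, beside 6.76% of all tested genes called higher. The most abundant of them, Slc38a2, was at 73.9 ± 9.57 against 135 ± 12.7 TPM, and its log2 fold change of -0.86 was short of the limit. Slc1a3, the glutamate uptake carrier GLAST of glia, was lower in Merkel cells. It was at 4.95, 3.40 and 5.40 TPM there and at 15.95 to 21.3 TPM in basal libraries (log2 fold change -1.91 ± 0.16, SE; limma adjusted p = 3.21e-05). Every Merkel library lay below every basal library for Slc1a3, as in 26.2% of tested genes. Of 10 uptake carriers of glutamate and GABA 3 were tested.

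The V-ATPase, whose proton gradient drives vesicle filling in neurons and acidifies lysosomes in all cells, was abundant in both cell types. Of 17 tested genes on this list 1 was called higher, beside 6.76% of all tested genes. The median over the 17 was a log2 fold change of 0.39, and that of all tested genes was -0.15. The called gene was Atp6v0e2, a subunit isoform known from brain, at 8.06, 6.80 and 7.94 TPM in Merkel libraries against 0.70 to 1.14 TPM (log2 fold change 2.16 ± 0.13, SE; limma adjusted p = 3.9e-06). The related widely expressed subunit Atp6v0e was at 79.0 ± 1.83 against 57.7 ± 5.78 TPM (log2 fold change 0.45, limma adjusted p = 0.0132, short of the fold limit). The most abundant, Atp6v1g1, was at 116 ± 8.84 against 75.6 ± 8.17 TPM (0.62 ± 0.12, limma adjusted p = 0.0042, short of the fold limit).

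**Figure D3:**
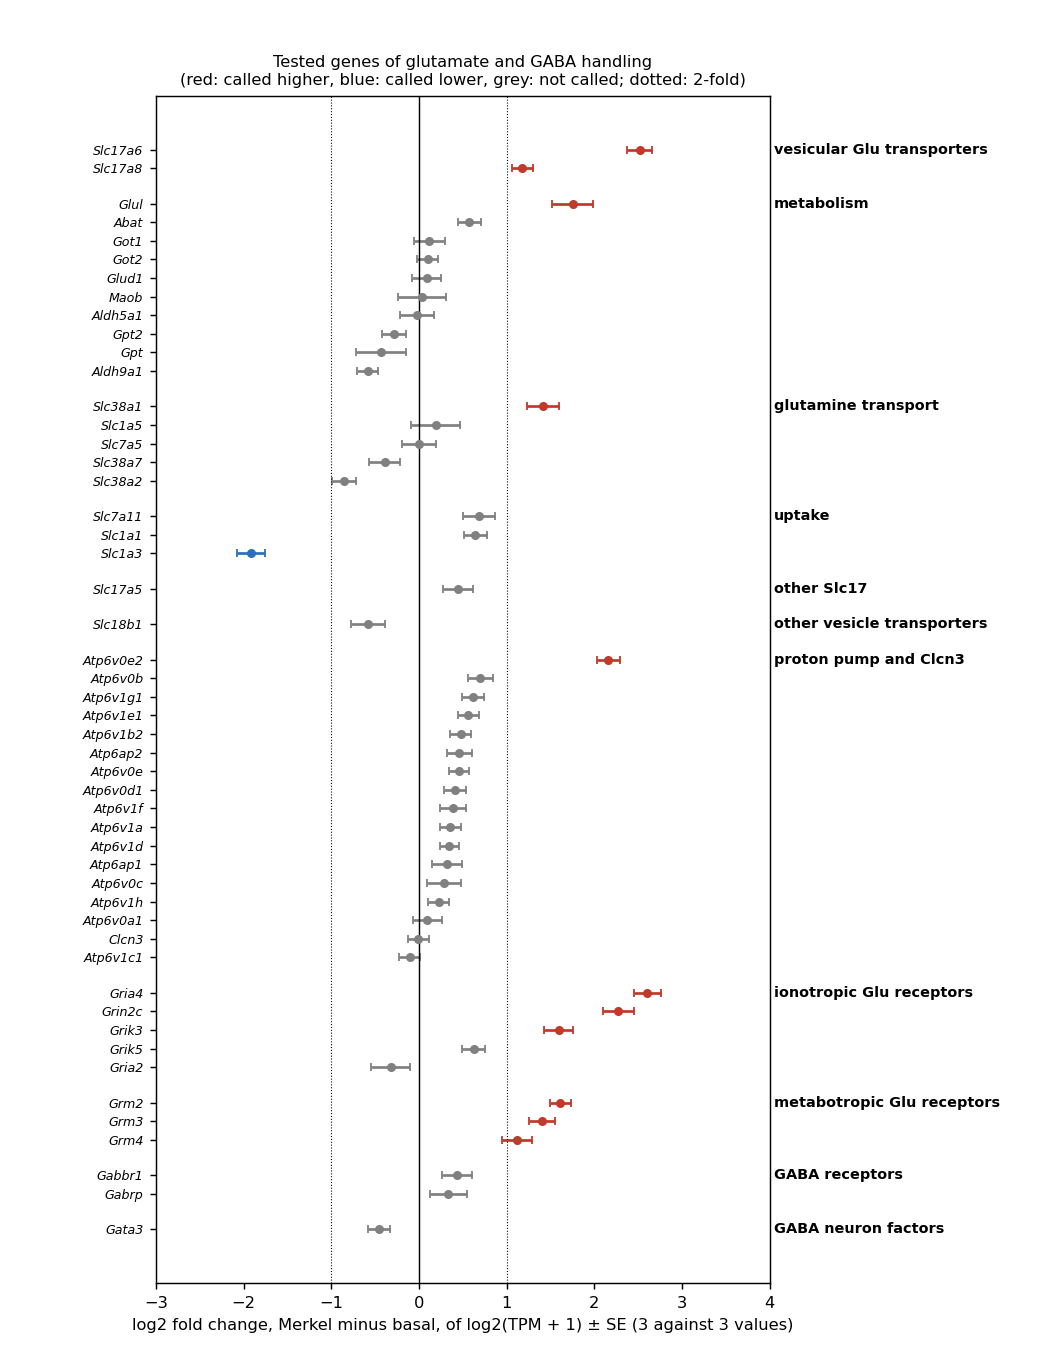
Log2 fold change, Merkel minus basal, on the log2(TPM + 1) scale (x axis), with SE as bars, of Slc17a6, Slc17a8 and 48 tested genes of the other lists (y axis), from 3 against 3 values; red is called higher, blue called lower, grey not called. The vesicular transporters and 6 glutamate receptor genes lie to the right of the 2-fold line, most enzymes and V-ATPase genes lie between the lines, and Slc1a3 (-1.91) lies to the left.

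Several receptors for glutamate were called higher. Of 18 ionotropic receptor genes 5 were tested and 3 were called higher, beside 6.76% of all tested genes. The AMPA receptor gene Gria4 was at 5.92, 4.24 and 6.14 TPM in Merkel libraries and 0.11 or less in basal libraries (log2 fold change 2.61 ± 0.15, SE; limma adjusted p = 3.19e-06). The NMDA receptor gene Grin2c was at 5.26, 2.85 and 4.12 TPM against 0.05 or less (2.27 ± 0.18). Grin1, the subunit that NMDA receptors require, was below the level for testing at 0.730 ± 0.0458 against 0.732 ± 0.252 TPM. The kainate receptor gene Grik3 was at 2.86 ± 0.749 against 0.263 ± 0.0693 TPM (1.60 ± 0.17).

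Of 8 metabotropic receptor genes 3 were tested and 3 were called higher, beside 6.76% of all tested genes. Grm2 was at 2.11 ± 0.233 against 0.0150 ± 0.0087 TPM (log2 fold change 1.61 ± 0.12, SE, n = 3 against 3). Grm3 was at 1.69 ± 0.429 against 0.0033 ± 0.0058 TPM (1.41 ± 0.15), and both genes encode receptors that lower cyclic AMP. Grm4, the most abundant, was at 4.46 ± 0.541 against 1.56 ± 0.547 TPM (1.12 ± 0.18). It fell short of the fold limit without basal sample number 1 (0.98) and when only first basal libraries were used (0.94). As for Slc17a6, calls of receptors near 0 in basal keratinocytes are largely set by the filter.

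Of 21 GABA receptor genes 3 were tested and 1 was called higher, beside 6.76% of all tested genes. The most abundant, the GABA-B receptor gene Gabbr1, was at 4.50 ± 0.993 against 3.13 ± 0.581 TPM (log2 fold change 0.43 ± 0.17, SE, not called). Of 10 transcription factors known from GABA neurons 1 was tested, Gata3, at 25.9 ± 2.92 against 36.1 ± 2.82 TPM (-0.46 ± 0.13, not called). With no filter on low values, Grm7, another metabotropic receptor gene, was also called higher (log2 fold change 1.08, limma adjusted p = 0.00169). In that fit 3.39% of 28451 genes were called higher and 2.46% lower. Glul, Slc1a3, Grin1, Grm2, Grm3, Grm7 and Gata3 each overlap other annotated genes, so reads of overlapping genes may have been split between them.

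Sensory nerve endings also use Slc17a6 and Slc17a8, so markers of sensory neurons were read in the same libraries. The neurofilament genes Nefl, Nefm and Nefh, the peripherin gene Prph, the sodium channel genes Scn9a, Scn10a and Scn11a and the channel gene Trpv1 were at 0.15 TPM or less in every Merkel library, and Scn10a was listed at 0 in all 3. Of the list of 11, Snap25, a vesicle fusion gene that secretory cells also use and the most abundant of the list, was at 7.20 to 12.0 TPM, and Pou4f1 was at 1.60 to 5.03 TPM. Snap25 (log2 fold change 3.33) and Pou4f1 (2.01) were called higher. The summed level of the list was 9.46 to 17.7 TPM in Merkel and 0.17 to 0.49 TPM in basal libraries, and its part in the transporters' levels was not tested.

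Markers of other cells also moved with the Merkel fraction. Of 8 tested genes of dermal fibroblasts and dermal papilla 7 were called higher, beside 6.76% of all tested genes. The part of these cells in the levels of Slc17a6 and Slc17a8 was not tested. Within the list of 9, summed levels were 189 to 284 TPM in Merkel, 36.2 to 103 in first and 102 to 254 in second basal libraries. The most abundant gene, Dcn, was at 93.5 to 170 TPM in Merkel and 33.1 to 242 TPM in basal libraries and was not called (log2 fold change 1.01 against first and -0.32 against second basal libraries). The papilla marker Corin was at 8.37 to 10.3 TPM in Merkel libraries, and at 0.10 to 0.14 in basal ones. Of 6 melanocyte genes 5 were called higher, led by Dct at 63.3 to 87.8 TPM. All 5 calls were lost against the second basal libraries alone, with log2 fold changes of 0.42 for Dct to 0.91 for Tyrp1, and Dct and Mlana overlapped between the groups. The list summed to 150 to 211 TPM in Merkel, 15.8 to 34.3 in first and 105 to 152 in second basal libraries. Dct was also at 47.0 to 68.3 TPM in second basal libraries. The part of melanocytes in the levels of Slc17a6 and Slc17a8 was not tested.

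Of the Schwann cell markers, Sox10 (log2 fold change 0.65, limma adjusted p = 0.0467) and Mbp, the most abundant (-0.03, adjusted p = 0.897), were short of the fold limit. Sox10 was called higher against the first basal libraries alone (1.56, limma adjusted p = 0.00132) and with a pseudocount of 0.1 (1.01), and had the opposite sign, -0.27, against the second. The list summed to 11.4 to 19.4 TPM in Merkel, 8.88 to 10.7 in first and 14.5 to 18.0 in second basal libraries. Immune markers, led by Cd74, were highest in first basal libraries (436 to 923 TPM in sum, against 32.0 to 123 in Merkel and 30.3 to 226 in second basal libraries). Of 4 tested immune genes 1, Ptprc, was called lower (log2 fold change -1.53, limma adjusted p = 0.00105), beside 5.29% of all tested genes. Against the second basal libraries alone Ptprc was not called and had the opposite sign (0.125). Cd74 was not called (log2 fold change -1.57, limma adjusted p = 0.0905) but was with the sample number as a block (adjusted p = 1.94e-05), without basal number 1 (-2.13) and against first basal libraries alone (-3.16). Endothelial markers, led by Pecam1, summed to 1.97 to 3.14 TPM in Merkel and 0.25 to 1.54 TPM in basal libraries. Pecam1 lay at the fold limit (log2 fold change 0.97) and was called higher under 8 alternatives (1.00 to 1.92), among them second basal libraries alone (1.08). Suprabasal markers, led by the keratin Krt1, summed to 4579 to 8820 TPM in Merkel and 4547 to 8846 TPM in basal libraries. The part of these cells in the levels of Slc17a6 and Slc17a8 was not tested.

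**Figure D4:**
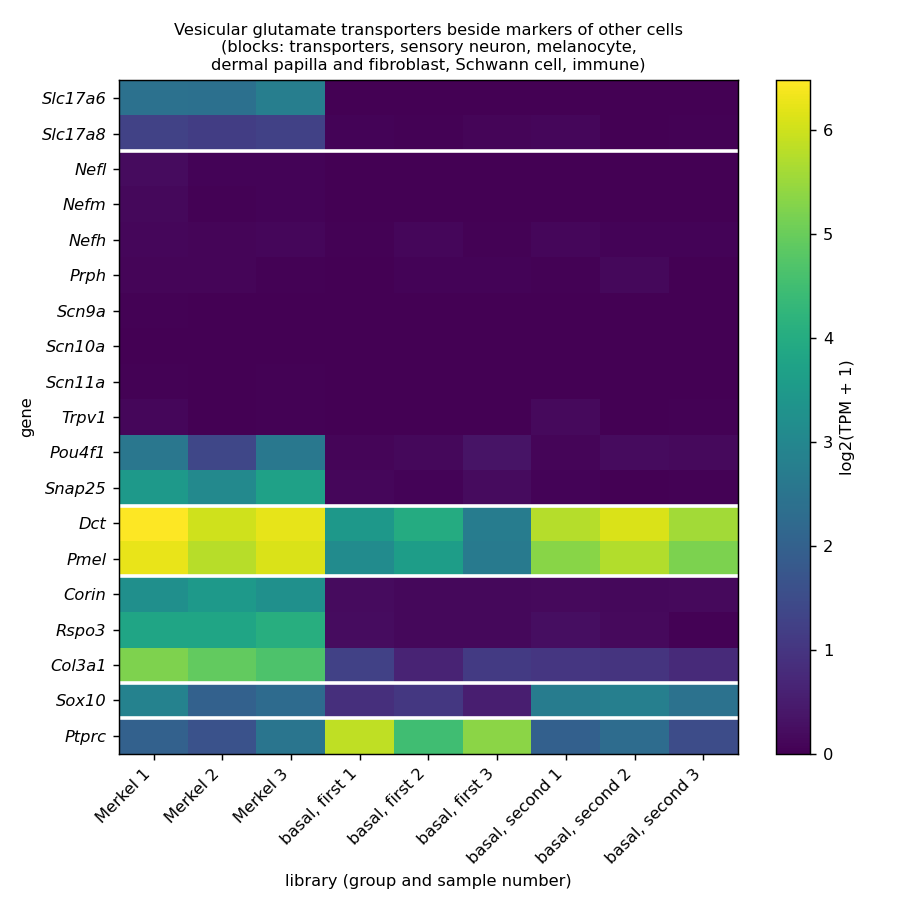
Level as log2(TPM + 1) (colour) of Slc17a6, Slc17a8 and markers of sensory neurons, melanocytes, dermal papilla and fibroblasts, Schwann cells and immune cells (y axis) in each library (x axis). Both transporters are at 1.27 TPM or more in the 3 Merkel libraries and at 0.08 TPM or less in the basal libraries, neurofilament and sodium channel genes stay at 0.15 TPM or less in Merkel libraries, and melanocyte genes are present in Merkel and in second basal libraries.

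Genes whose levels followed the transporters most closely were taken by Pearson's r of log2(TPM + 1) over the 9 libraries among 12175 tested protein-coding genes. For Slc17a6 these were the calcium-binding protein gene Scgn (r = 0.9998), the adhesion gene Cntnap3, the acetylcholine receptor gene Chrna10, Kndc1 and the acetylcholine receptor gene Chrna5 (r = 0.9993). For Slc17a8 they were the proteoglycan gene Spock1 (r = 0.9992), the gene of the sort's reporter, Sox2, the synaptic vesicle gene Syp, the protease gene Pappa2 and the transcription factor gene Pou4f3 (r = 0.9988). Slc17a6 and Slc17a8 had r = 0.9959 with each other. These values rest on the gap between the 2 cell types, and 245 genes for Slc17a6 and 254 for Slc17a8 passed r = 0.99.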

How the data were processed

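Per the labels' protocols, stranded total RNA libraries gave paired reads of 125 bases. Trimmomatic, STAR and RSEM on mm10 are named in the submitters' processing notes; versions are left out. The sources used here give no annotation and no strand setting. The authors deposited TPM per gene with 2 decimals, in 1 table of 49672 rows. TPM keeps no depth, so low values are the least precise. With the version dropped, 49326 identifiers had a symbol in GENCODE M21 (GRCm38, the same as mm10).

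TPM was transformed to log2(TPM + 1), and basal libraries with the same number were averaged on it. Genes at 1 TPM or more in at least 3 of 6 values (basal: mean TPM of the number) were tested, 13883 in all, with limma 3.58.1 in R 4.3.3 (variance trend, two-sided, Benjamini-Hochberg adjustment). A call needed limma's adjusted p below 0.05 and an absolute log2 difference of at least 1. Levels are mean TPM ± SD over 3 values. The fit was tested on simulated data. Tables used Python 3.11.15 with pandas 2.3.3, scipy 1.17.1 and matplotlib 3.10.9.

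Same-numbered samples deviated together across genes. Correlations of their deviations from the group means were 0.384, 0.356 and 0.201 for numbers 1, 2 and 3. Between Merkel and basal samples of different numbers they ranged from -0.349 to 0.058. The numbers were thus taken to pair the samples, but the main fit used them only to average basal libraries. Its SEs and p-values are unpaired, and the pairing entered only as the block among the alternatives. The pairing comes from the sample numbers in the titles. The 7 genes and the gene lists were chosen with earlier results of these data known. Named are the 7 genes, up to 3 called genes per list and direction with the smallest adjusted p, the most abundant gene of each list, and the 5 genes most like each called transporter. Abat, Grin1, Grm7 and other genes outside that rule were chosen after their values were seen. Some genes of the lists are counted but not reported here. Alternatives covered pseudocount, filter, scaling, variance trend, block, basal set and each replicate left out.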

Additional observations from a re-analysis of the deposited data

How the results depend on the processing

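Slc17a6 and Slc17a8 were called higher under each of 16 alternatives that tested them, with log2 fold changes of 2.40 to 5.55 and 1.15 to 3.42 and limma adjusted p of at most 0.000247 and 0.000832. Most of these alternatives kept the main filter, which both genes passed through the Merkel libraries alone. Their calls there are largely set by it and are no independent support. A filter at 5 TPM tested neither, which left 0 of the 7 genes called, 2 genes of the other lists in place of 10, and 487 genes called higher overall in place of 938; fewer genes were tested there. Genes called lower overall numbered 735, 1307 with a pseudocount of 0.1 and 449 with median-ratio scaling. With the sample number as a block, 960 genes were higher and 765 lower (limma). Of 94 tested genes of the lists, the pairing changed the call of 2, Cd74 (given above) and Lyz2 (-1.06, adjusted p = 0.00187), both lower under the block. Leaving out 1 Merkel or basal sample number at a time gave 877 to 1007 genes higher and 598 to 881 lower, 2 of the 7 genes higher and 0 lower, and 9 to 10 genes of the other lists higher and 1 lower. The share of Slc17a6 was 75.2% to 77.2% without 1 Merkel library. Of Slc17a6, Slc17a8, Abat and the called genes reported from the lists of glutamate and GABA handling, 13 in all, 12 kept their side of the threshold under each alternative that tested them; the exception was Grm4 (0.94 and 0.98, as given above). Markers of other cells changed more: over all 94 genes, 5 calls differed against first and 7 against second basal libraries alone, among them Dct, Sox10, Cd74 and Pecam1. The unknown depth limits what can be said of genes under 1 TPM.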
